A study of Mus musculus with 6 samples.

Results

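The Cep genes are the genes whose symbol starts with Cep followed by digits, for centrosomal protein and, in most cases, the mass of the protein it encodes. They were chosen by symbol. The probe set of each was chosen by the highest mean log2 signal over the 6 arrays among those annotated to that symbol alone. The rule found 39 of 22180 genes, of which 37 encode proteins and 2, Cep83os and Cep112it, are long noncoding RNA genes named after a neighbour. The family was put forward with the differences between the antibody and IgG arrays in view, so those differences and the counts built on them are a description of these arrays and not an independent test of the family.

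Monocytes from the bone marrow of 3 C57BL/KaLwRij mice were grown into macrophages over 7 days of M-CSF, and 5TGM1-luc cells, a mouse myeloma line, were then added overnight. Then 1 group received an antibody against mouse CSF1R, the M-CSF receptor, at 0.5 nM and the other an IgG control antibody, both for 3 days. All groups were thus mixed cultures of the same strain, and the macrophages were rinsed 4 times to clear myeloma cells ahead of RNA extraction. RNA of 3 samples per group was hybridised to GeneChip Mouse Gene 2.0 ST arrays, and nothing in the labels ties an array to a mouse, so the spread between arrays may be technical.

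The centrosome organises microtubules from a pair of centrioles, which are copied a single time per cell cycle, so many of its parts are made as cells prepare to divide. In a resting cell the older centriole can dock at the membrane through its distal appendages and template a primary cilium. Macrophages grown with M-CSF can divide, and myeloma cells divide continuously. Both kinds of cell are therefore possible sources of this RNA.

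After the CSF1R antibody, most Cep genes were lower by a modest amount. Against the fit over all genes (limma, Benjamini-Hochberg adjusted p under 0.05), 27 of the 39 were lower, 2 were higher and 10 did not pass. The same threshold called 16.0% of all genes lower and 12.5% higher. The 27 that fell did so by 0.24 to 0.67 on the log2 scale, which is 1.18-fold to 1.59-fold lower, and none of the 39 reached a 2-fold change. The median difference, antibody minus IgG, was −0.32 over the Cep genes and −0.02 over all genes. All 3 antibody arrays lay below all 3 IgG arrays for 27 Cep genes and above them for 2. Over all genes those shares were 22.7% and 16.6%. Among the 13116 genes above a background guide of 4.92 in at least 1 group, 26.0% were lower and 20.1% higher. For 35.1% of them, all 3 antibody arrays lay below all 3 IgG arrays. That guide is the 95th percentile of the mean log2 signal of 1394 olfactory and vomeronasal receptor genes, and is only an approximate background level. Of the Cep genes, 37 lay above it in both groups.

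**Figure D1:**
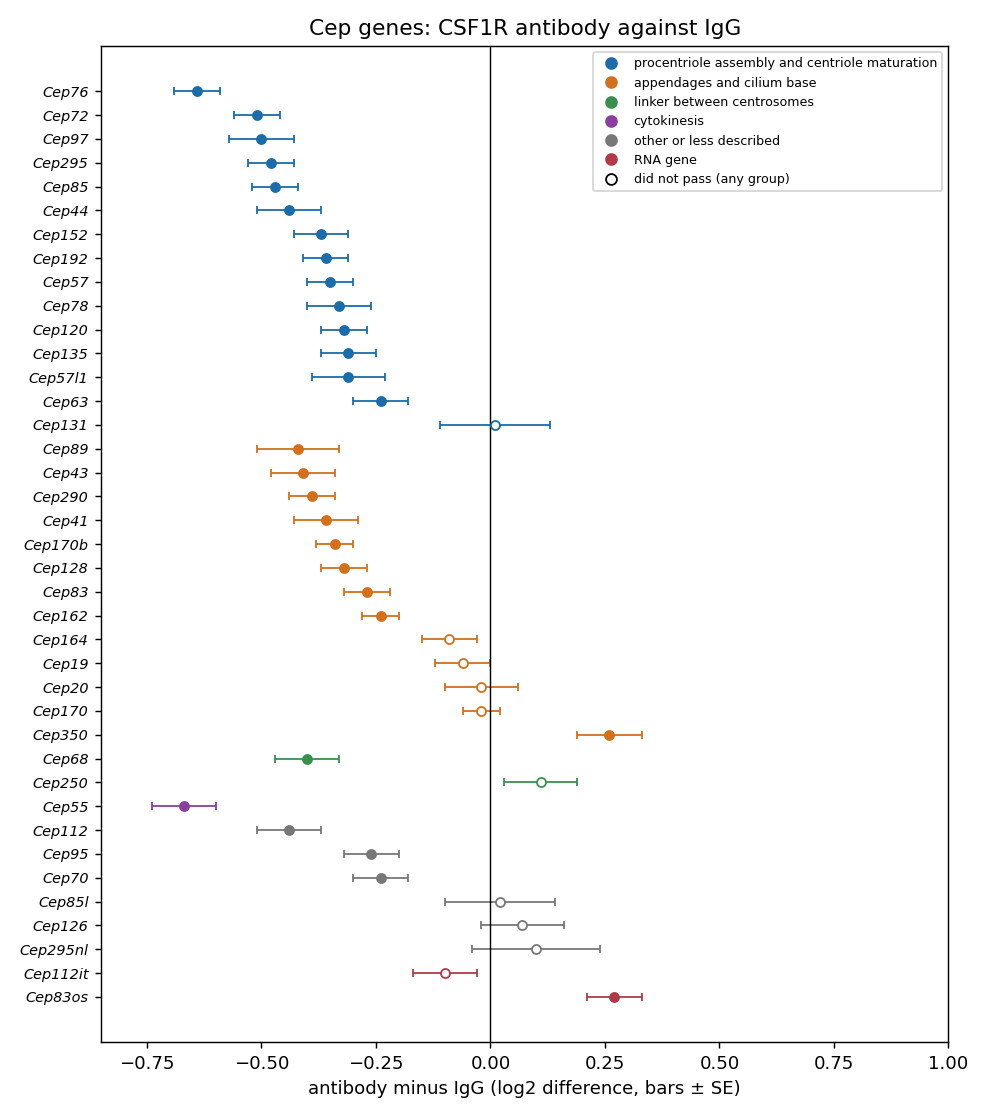
Log2 difference, antibody minus IgG, of each of the 39 Cep genes, coloured by role, with bars of 1 SE from the limma fit (3 arrays per group); open circles did not pass. Of 15 genes listed under centriole assembly and maturation, 14 lie left of 0 and passed. Of the 7 genes right of 0, only Cep350 and the RNA gene Cep83os passed.

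The counts depended in part on single arrays. When each array was left out in turn, 23 to 27 Cep genes were lower and 0 to 2 were higher. Cep63 lost its call without any of antibody replicates 1, 2 and 3 and IgG replicates 2 and 3 (limma adjusted p from 0.051 to 0.066), and Cep70 without any antibody replicate (0.051 to 0.059). Cep95 lost it without antibody replicate 2 (0.062) or IgG replicate 2 (0.056) or 3 (0.053), Cep89 without IgG replicate 2 (0.057) or 3 (0.063), and Cep57l1 without antibody replicate 1 (0.087) or 2 (0.088). Both higher genes lost their calls in some of these fits. Cep350 lost its call without antibody replicate 1 (0.097), 2 (0.056) or 3 (0.11) and without IgG replicate 1 (0.12) or 3 (0.12), and Cep83os without antibody replicate 1 (0.064) or 2 (0.051) or IgG replicate 3 (0.062). The other 22 lower genes passed in each of these fits. With cyclic loess scaling of the arrays, 22 Cep genes were lower and 2 higher, with a median of −0.21, where 10.6% of all genes were lower and 15.4% higher. Cep63 (limma adjusted p 0.11), Cep95 (0.094), Cep57l1 (0.085), Cep162 (0.079) and Cep70 (0.073) lost their calls under this scaling. Cep63 (0.062), Cep70 (0.051) and Cep57l1 (0.05) also lost theirs with arrays centred on their medians.

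Signal on single arrays showed the same split. The median deviation of the Cep genes from their own IgG means was −0.34, −0.30 and −0.27 on antibody arrays 1, 2 and 3, and between −0.03 and 0.00 on the IgG arrays. The IgG deviations cancel out within each gene by construction, so medians near 0.00 there carry no information on the split. The genes varied little among arrays of a group, with a median SD of 0.06 with the antibody and 0.06 with IgG, and the largest SD was 0.27.

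**Figure D2:**
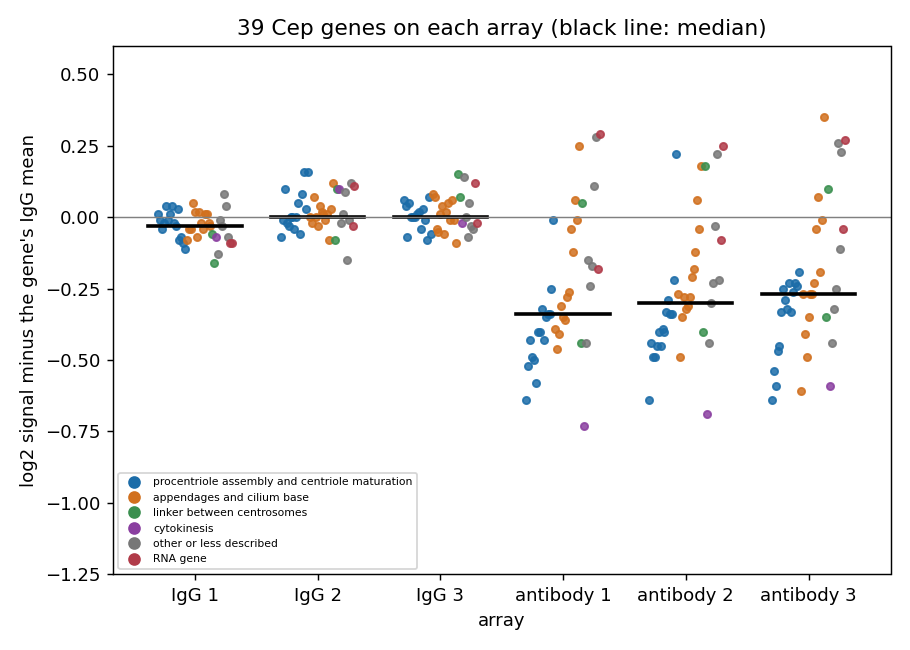
Log2 signal of each of the 39 Cep genes on each array, minus that gene's mean over the 3 IgG arrays, coloured by role, with the median of each array as a black line. The medians of the antibody arrays lie at −0.34, −0.30 and −0.27, and a few genes lie above 0 on all 3 of them.

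Cep55 showed the largest fall. Its protein gathers at the midbody and recruits the ESCRT machinery that separates daughter cells at the end of division. Log2 signal was 8.53, 8.57 and 8.67 on the antibody arrays and 9.19, 9.36 and 9.24 on the IgG arrays. All antibody values were thus below the lowest IgG value, and Cep55 fell by 0.67 (SE 0.07; 1.59-fold lower). Its promoter is shown because it holds TTTGAA, the letters of the cell cycle genes homology region, an element through which MuvB complexes time transcription to the G2 and M phases. The sequence is chr19:38054734-38055033 of GRCm38.p6 (RefSeq), plus strand, from 250 bases before to 50 after a start site, and the capitals mark the match, which lies on the minus strand.
Cep55: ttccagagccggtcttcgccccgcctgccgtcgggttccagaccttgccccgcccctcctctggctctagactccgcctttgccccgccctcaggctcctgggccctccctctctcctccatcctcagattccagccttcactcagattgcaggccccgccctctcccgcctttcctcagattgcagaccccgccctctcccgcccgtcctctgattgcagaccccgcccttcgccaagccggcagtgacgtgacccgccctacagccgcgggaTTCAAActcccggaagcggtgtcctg

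Among the larger roles, the genes listed under centriole assembly and maturation fell most uniformly. That list is broad and also holds genes that restrain centrioles and genes of satellites. Of 15, 14 fell and 1 did not pass, with a median of −0.36. Cep192 and Cep152 are scaffolds that bring the kinase PLK4 to the site of a new centriole. Cep192 read 8.90, 8.91 and 9.01 with the antibody against 9.34, 9.26 and 9.31 with IgG, and fell by 0.36 (SE 0.05). Cep152 read 6.92, 6.87 and 7.07 against 7.33, 7.32 and 7.32, and fell by 0.37 (SE 0.06). For neither gene did the groups overlap. Cep63 and Cep57, which sit in the same ring around the parent centriole, fell by 0.24 (SE 0.06) and 0.35 (SE 0.05). Cep57l1, the paralogue of Cep57, fell by 0.31 (SE 0.08). The size of the fall thus ranged little within this ring, from 0.24 to 0.37.

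The promoter of Cep152 is shown because it was the only Cep window with TTCGAA, the second form of the homology region searched, and it also holds 3 matches to CCAAT, the box bound by NF-Y. It is chr2:125625064-125625363 of GRCm38.p6 (RefSeq), minus strand, with the 4 matches in capitals.
Cep152: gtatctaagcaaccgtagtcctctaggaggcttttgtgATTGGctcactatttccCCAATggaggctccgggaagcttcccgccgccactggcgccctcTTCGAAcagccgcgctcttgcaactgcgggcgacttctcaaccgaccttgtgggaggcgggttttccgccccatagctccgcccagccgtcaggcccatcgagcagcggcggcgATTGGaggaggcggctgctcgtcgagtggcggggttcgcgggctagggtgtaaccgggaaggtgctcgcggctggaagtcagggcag

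The next genes build the new centriole and make it competent. Cep135 encodes a part of the cartwheel at the centriole's core and fell by 0.31 (SE 0.06). Cep120, needed for centriole elongation, read 9.38, 9.44 and 9.40 with the antibody and 9.76, 9.67 and 9.76 with IgG, a fall of 0.32 (SE 0.05). Cep295 and Cep44 act when a daughter centriole is converted into a centrosome of its own. Cep295 read 8.05, 8.05 and 8.07 against 8.52, 8.52 and 8.59, and fell by 0.48 (SE 0.05). It was the only Cep gene with a second probe set, which read 5.14 ± 0.14 against 5.36 ± 0.18 (SD, n = 3), a difference of −0.22. Cep44 fell by 0.44 (SE 0.07). Cep85, whose protein binds the assembly factor STIL, read 7.51, 7.56 and 7.56 against 8.05, 7.98 and 8.01, and fell by 0.47 (SE 0.05). Its paralogue Cep85l did not pass, at 6.43 ± 0.22 against 6.41 ± 0.13 (SD, n = 3). In none of these falls did the groups overlap.

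The same list holds genes whose products restrain centrioles, and these fell as well. Cep76 limits the repeated copying of centrioles within a cycle. It read 9.07 on all 3 antibody arrays and 9.72, 9.64 and 9.77 on the IgG arrays, a fall of 0.64 (SE 0.05) and the second largest of the family. Cep97 forms, with CCP110, the cap on the centriole's end that blocks a cilium. It read 6.44, 6.38 and 6.28 against 6.83, 6.97 and 6.80, and fell by 0.50 (SE 0.07). Cep72, a protein of the pericentriolar material and satellites, read 6.69, 6.77 and 6.67 against 7.20, 7.20 and 7.25, and fell by 0.51 (SE 0.05). Cep78, whose loss in people causes cone-rod dystrophy with hearing loss, fell by 0.33 (SE 0.07). Cep131, which encodes a centriolar satellite protein, was the member of this role that did not pass, at 6.54, 6.77 and 6.36 against 6.44, 6.71 and 6.49. Its arrays were spread more widely than those of the other genes of this role, and the groups overlapped.

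Genes of the appendages and of the cilium base were more mixed. Of 13, 8 fell, 1 rose and 4 did not pass, with a median of −0.27. Cep83 encodes the protein on which distal appendages are built. It read 8.05, 8.05 and 8.06 with the antibody and 8.35, 8.35 and 8.27 with IgG, and fell by 0.27 (SE 0.05). Cep89, another distal appendage gene, fell by 0.42 (SE 0.09). Cep164, whose product at the outer end of these appendages recruits the kinase TTBK2, did not pass, at 6.92, 6.78 and 6.92 against 6.92, 6.95 and 7.01. Not all distal appendage genes thus passed, although the difference between these 3 genes was not tested.

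At the subdistal appendages, Cep128 fell by 0.32 (SE 0.05), from 7.93 ± 0.06 to 7.62 ± 0.04 (SD, n = 3). The subdistal appendage gene Cep170 read 9.40, 9.37 and 9.40 against 9.39, 9.44 and 9.40, a difference of −0.02 (SE 0.04), and did not pass. Its paralogue Cep170b read 6.77, 6.80 and 6.77 against 7.14, 7.09 and 7.13, and fell by 0.34 (SE 0.04). The Cep170 groups overlapped and the Cep170b groups did not, and the difference between the paralogues was not tested.

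Nearer the cilium, Cep290 encodes a linker of the transition zone, the gate at the cilium's base, and is mutated in Joubert syndrome and in childhood blindness. It read 7.01, 7.07 and 7.01 with the antibody and 7.38, 7.49 and 7.38 with IgG, a fall of 0.39 (SE 0.05). Cep162, which helps to assemble that zone, fell by 0.24 (SE 0.04), but did not pass with cyclic loess scaling (limma adjusted p = 0.079). Cep41, needed for glutamylation of the tubulin of cilia, fell by 0.36 (SE 0.07).

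Cep350, Cep43 and Cep19 encode proteins that work together at the mother centriole in the start of cilium formation, and their transcripts differed in direction. Cep43, long known as Fgfr1op or FOP, read 7.31, 7.28 and 7.50 against 7.73, 7.75 and 7.84, and fell by 0.41 (SE 0.07). Cep350 read 8.43, 8.36 and 8.53 against 8.15, 8.30 and 8.09, and was higher by 0.26 (SE 0.07), the only protein-coding Cep gene to rise. Its call was lost without any of antibody replicates 1, 2 and 3 and IgG replicates 1 and 3, with the adjusted p-values given above. Cep19 did not pass, at 6.39, 6.39 and 6.58 against 6.52, 6.52 and 6.50. Cep20, a small relative of Cep43 formerly called Fopnl, read 9.02, 9.02 and 8.77 against 8.97, 8.88 and 9.02 and did not pass either.

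The linker that ties the centrosomes of a cell together until mitosis was represented by a pair of genes. Cep68 read 6.11, 6.15 and 6.20 against 6.49, 6.47 and 6.70, and fell by 0.40 (SE 0.07). Cep250, the docking protein of the linker at the centriole's base, read 7.12, 7.25 and 7.17 against 6.91, 7.17 and 7.14 and did not pass (difference 0.11, SE 0.08). The Cep68 groups were apart, and the Cep250 groups overlapped.

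Of the 6 remaining protein-coding genes, 3 fell and 3 did not pass. Cep70, whose product binds gamma-tubulin, fell by 0.24 (SE 0.06) and Cep95 by 0.26 (SE 0.06). Cep112 fell by 0.44 (SE 0.07), with 5.12 on all 3 antibody arrays and 5.43, 5.54 and 5.70 on the IgG arrays. It was the only Cep gene with exactly equal deposited values on the arrays of a group, so its SD there is 0. Cep295nl lay at 5.30 ± 0.27 and 5.20 ± 0.10 (SD, n = 3). Cep126 lay at 2.81 ± 0.16 and 2.74 ± 0.04, under the guide with either treatment, and its values do not show whether it changed.

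Of the 2 RNA genes, 1 rose and 1 did not pass. Cep112it, at 4.11 ± 0.08 on antibody arrays and 4.21 ± 0.10 on IgG arrays (SD, n = 3), was under the guide, and its values do not show whether it changed. Cep83os, the opposite-strand gene at Cep83, read 7.35, 7.31 and 7.33 against 6.97, 7.17 and 7.04, and was higher by 0.27 (SE 0.06), while Cep83 was lower by the same amount. The annotated start sites of the pair lie 177 bases apart and point away from each other. The window is shown for that reason, as chr10:94688540-94688839 of GRCm38.p6 (RefSeq), plus strand for Cep83, with capitals from the start site of Cep83os to that of Cep83. It holds none of the motifs searched.
Cep83: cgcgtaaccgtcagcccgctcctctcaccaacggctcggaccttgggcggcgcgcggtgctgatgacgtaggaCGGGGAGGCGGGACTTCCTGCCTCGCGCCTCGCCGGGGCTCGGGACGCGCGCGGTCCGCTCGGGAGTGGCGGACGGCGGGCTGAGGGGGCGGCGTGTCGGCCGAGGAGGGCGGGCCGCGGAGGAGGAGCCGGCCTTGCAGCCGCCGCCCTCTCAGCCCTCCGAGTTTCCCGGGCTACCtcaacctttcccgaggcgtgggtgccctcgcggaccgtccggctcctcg

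The promoters of the family held these motifs at shares that were compared with all promoters without a test. RefSeq promoter windows of 300 bases were matched for 32 of the 37 protein-coding genes, as 39 windows since some genes have several start sites. CCAAT, on either strand, was in 43.6% of the Cep windows and 37.4% of all 32851 windows. TTTGAA was in 28.2% against 17.9%, and TTCGAA in 2.56% against 1.56%. By gene, 10 of the 32 held TTTGAA or TTCGAA, and 8 of those 10 fell, where 24 of all 32 fell. CCAAT was in the windows of 16 of the 32, of which 12 fell. For neither motif was the share that fell far from that of all matched genes. The E2F-type motif TTTCCCGC was in the window of Cep128 alone, against 1.07% of all windows, and TTTGGCGC was in none, against 0.514%. A match is a run of letters and does not show that a factor binds there. TTCGAA reads the same on both strands, and none of these motifs contains another.

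The Cep genes lay well to the low side of all genes measured. A difference of −0.30 or lower was found in 56.41% of the Cep genes and 11.96% of all genes, and a difference of −0.20 or lower in 69.2% and 20.2%. All genes here include 9064 under the guide in both groups, as were 2 Cep genes, so the comparison is not between genes of similar signal. In the fit of genes above the 50th percentile of signal, 36.4% were lower, beside 26 of 35 Cep genes.

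**Figure D3:**
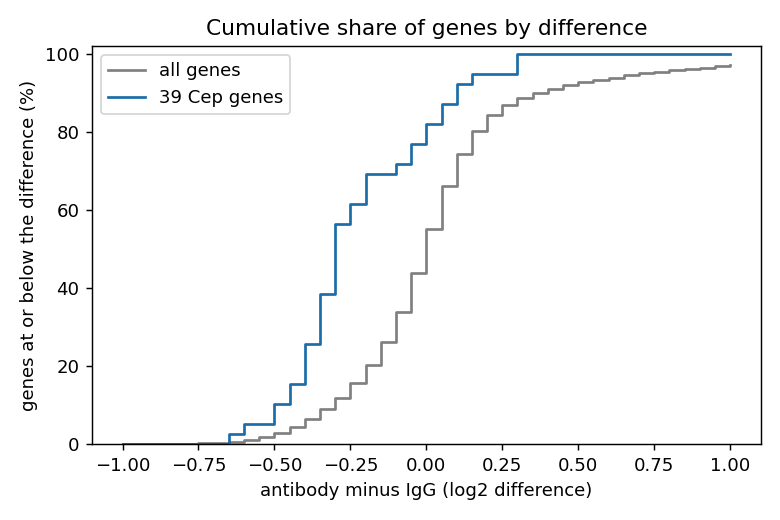
Share of genes, in percent, at or below each log2 difference (antibody minus IgG, in steps of 0.05, shown from −1 to 1), for the 39 Cep genes and all 22180 genes. The Cep curve reaches 69.2% at −0.20, where the curve of all genes stands at 20.2%. Of all genes, 9064 lay under the background guide in both groups.

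Other genes of the centrosome were taken from lists written from textbook knowledge, and the lists were not tested against each other. Of 21 measured genes of centriole assembly other than Cep genes, 11 fell (52.4%) and 0 rose (median −0.23). For all genes those shares were 16.0% lower and 12.5% higher, and for genes above the guide 26.0% and 20.1%. Stil, the partner of PLK4 at the start of assembly, fell by 0.65 (SE 0.06), the centriole gene Cntrob by 0.48 (SE 0.04), Plk4 itself by 0.47 (SE 0.08) and Ccp110, the cap partner of Cep97, by 0.44 (SE 0.05). Cntrob read 7.1 on all 3 antibody arrays (SD 0). Of 26 genes of the pericentriolar material and of microtubule nucleation, 18 fell (69.2%) and 1 rose, with a median of −0.31. Aspm, a spindle pole gene mutated in microcephaly, fell by 0.63 (SE 0.05), and the mitotic kinase genes Plk1 and Aurka by 0.55 (SE 0.05) and 0.48 (SE 0.05). Haus1, of the augmin complex that branches microtubules, fell by 0.47 (SE 0.05). With cyclic loess scaling, 11 of these 26 were lower. The gene that rose was Haus8 (0.23, SE 0.06), named after its value was seen, and its call was lost without any antibody replicate or without IgG replicate 2, when 0 genes of the list rose.

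Genes of the appendages, satellites, linker and cilium base other than Cep genes had a median near 0. Of 24 measured, 3 fell (12.5%) and 6 rose (25%), with a median of 0.01, beside 16.0% and 12.5% of all genes and 26.0% and 20.1% of genes above the guide. One of the 6, Cntln, named after its values were seen, lay at 4.77 against 4.52, under the guide. The count of lower genes was 5 with an intensity trend or the 25th percentile filter and 6 with the 50th percentile filter or among genes above the guide. Nek2, the kinase that dissolves the linker before mitosis, fell by 0.46 (SE 0.05). Nin, which encodes the subdistal appendage protein ninein, rose by 1.06 (SE 0.09), from 5.95 ± 0.18 to 7.01 ± 0.04 (SD, n = 3), and Tmem67, a transition zone membrane protein gene, by 1.02 (SE 0.06). The satellite gene Ssx2ip rose by 0.54 (SE 0.07), and read 6.09 on all 3 antibody arrays (SD 0). For comparison, the 13 Cep genes of the appendages and cilium base had a median of −0.27, and the difference between the lists was not tested.

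**Figure D4:**
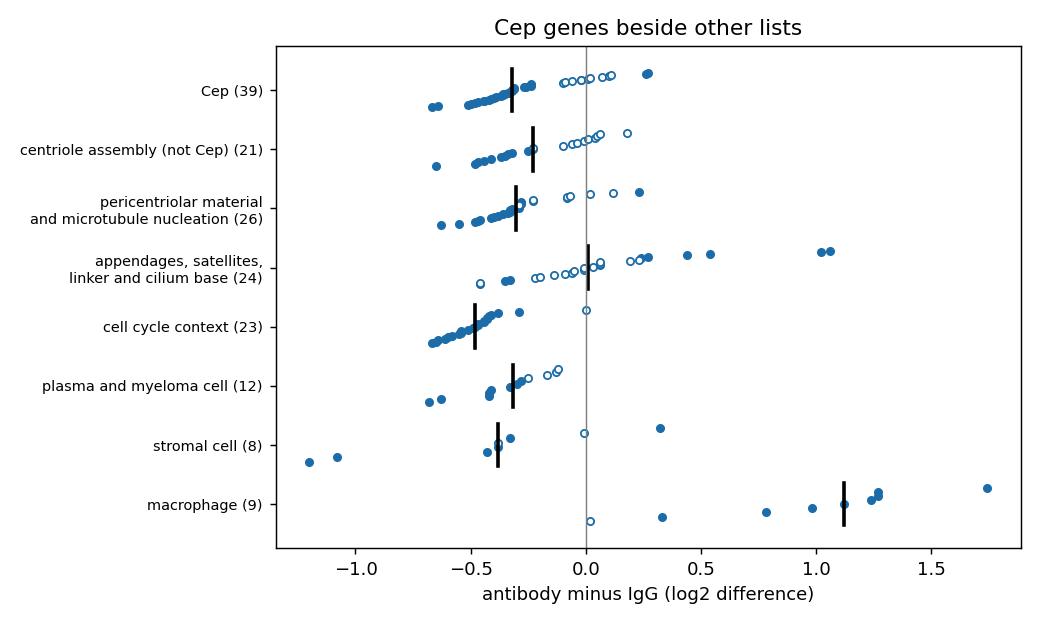
Log2 difference, antibody minus IgG, of each gene of the Cep family, of 3 other centrosome lists, of a cell cycle list and of markers of plasma, stromal and macrophage cells; filled circles passed the test, open circles did not, and black lines are medians. The medians are −0.32 for the 39 Cep genes, −0.48 for the cell cycle list and 1.12 for macrophage markers.

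Markers of the cell cycle and of other cells moved on the same arrays. Their counts stand beside 16.0% lower and 12.5% higher over all genes, and 26.0% and 20.1% among genes above the guide. Of 23 cell cycle genes, 22 fell and none rose (median −0.48), and among them Cenpf fell by 0.67 (SE 0.05) and Cdk1 by 0.61 (SE 0.06). The log2 of their summed linear signal was 14.02 to 14.12 with the antibody and 14.51 to 14.53 with IgG. The brightest genes weigh most in such a sum, which is given in the same form for the lists that follow. Of 12 plasma and myeloma cell markers, 8 fell and 0 rose, with a median of −0.32, and their summed signal was 14.05 to 14.17 against 14.39 to 14.43. Of 9 macrophage markers measured, 8 rose and 0 fell, with a median of 1.12 and a summed signal of 14.72 to 14.77 against 13.90 to 13.97. Of 8 stromal markers, 5 fell and 1 rose, and their summed signal was 9.93 to 10.02 against 10.89 to 10.93. Cd163, Tnfrsf17, Lum and Dcn were under the guide with either treatment. The part of these lists in the fall of the Cep genes was not tested. The RNA came from rinsed cultures that may still hold both kinds of cell. In it, fewer dividing cells, another mix of cells and less RNA per cell cannot be told apart.

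Across the series, median log2 signal over all probe sets was 4.88 to 4.91 on antibody arrays and 4.93 to 4.95 on IgG arrays. The antibody arrays were thus slightly lower, and with arrays centred on these medians the Cep median was −0.27 in place of −0.32. Arrays correlated at 0.992 to 0.993 within groups and 0.984 to 0.985 between groups (Pearson, across probe sets, which are not independent replicates). With 3 arrays a group, precision is limited, and as no array is tied to a mouse, the SEs and p-values may reflect technical spread alone.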

How the data were processed

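The deposited values were linear intensity values, 1 per probe set and array. RMA and limma are named, without version or role, per the submitters' processing notes, while summary level and genome build were not given in the sources used here. RMA usually includes quantile normalization, which can mask a change shared by most genes. Values were taken as log2. Genes were named from the platform annotation. Of 41345 probe sets, 23521 had a single symbol, 1814 had several and 16010 none, and only the first were used, giving 22180 genes with no filter on low signal.

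Antibody and IgG arrays were compared by lmFit and eBayes of limma 3.58.1 under R 4.3.3, with Benjamini-Hochberg adjustment over all 22180 genes and a threshold of 0.05. SE is limma's moderated standard error. The script was tested on simulated data. Promoters and motifs were searched in Python 3.11.15, and figures drawn with matplotlib 3.10.9.

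The members, roles, gene lists and motifs were chosen with earlier results of these data known. All Cep genes could be named, and of each other list up to 4 genes with the largest difference past the threshold. Alternatives were an intensity trend, cyclic loess, median centring of arrays, array weights, symbols with no letters after the digits, averaging the probe sets of a gene, removing genes under the 25th or the 50th percentile of signal, a block for replicate number, and fits without each array in turn. Restricting to protein-coding members, and to genes above the receptor guide, was added after seeing the data.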

Additional observations from a re-analysis of the deposited data

How the results depend on the processing

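The count of lower Cep genes stayed within 1.5 times of 27 under each alternative run, and no Cep gene that passed changed sign. Of 578 values of single Cep genes under the alternatives, 34 lost a call, 0 gained one and 14 changed sign without passing either way. The Cep median was −0.27 with arrays centred on their medians and −0.21 with cyclic loess. Among all called genes, 43.8% were higher as deposited, 52.6% with centred arrays and 59.2% with cyclic loess, and with the last 11 genes of the pericentriolar material were lower in place of 18. With the replicate block, 26 Cep genes were lower and 0 higher in place of 2, and 0 genes of the pericentriolar material were higher. Deviations of same-numbered arrays correlated at 0.03, −0.05 and 0.00, so the numbers were not taken to pair the arrays. Counting only symbols with no letters after the digits, or only protein-coding genes, left 1 higher Cep gene. The intensity trend and the 25th percentile filter each gave 5 lower genes of the appendage and satellite list in place of 3, and the 50th percentile filter and the receptor guide each gave 6. In the centriole assembly list, 1 gene was higher in place of 0 with the trend, array weights, centred arrays, cyclic loess, either percentile filter or the guide. Leaving out each array gave 0 to 2 higher Cep genes, 0 to 1 higher genes of the pericentriolar material and 0 to 1 of centriole assembly. The cause of these changes was not tested. Depth could not be assessed on arrays without measured background.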

Other observations

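Several Cep genes start close to a gene on the other strand, and that neighbour was lower in some pairs and higher in others. In RefSeq's GRCm38.p6 promoter table, a start site of a gene pointing away lay within 1000 bases for 12 Cep genes. Cep83 and Cep83os are each other's neighbour there. In 10 such pairs both genes were on the arrays. Of the 37 protein-coding Cep genes, 5 had no window in that table and could not be searched. This comparison was added after the values were seen and carries no test of the pairs. In 9 of the 10 the Cep gene was lower, and its neighbour was lower in 3, higher in 3 and did not pass in 3. Over all genes 16.0% were lower and 12.5% higher, and among genes above the guide 26.0% and 20.1%. With so few pairs, these counts do not set the neighbours apart from other genes. Cep89 and Faap24, a Fanconi anaemia pathway gene 296 bases away, both fell, with differences of −0.42 and −0.34 (SE 0.04 for Faap24). Cep290 and Tmtc3 fell by 0.39 and 0.30, and Cep63 and Anapc13, a subunit of the anaphase-promoting complex, fell by 0.24 and 0.20. In the other direction, Sesn1, a stress-induced inhibitor of growth signalling that starts 706 bases from Cep57l1, rose by 0.54 (SE 0.06) while Cep57l1 fell by 0.31. Ddx5, an RNA helicase gene 67 bases from Cep95, rose by 0.17 (SE 0.04) while Cep95 fell by 0.26. The third pair of that kind was Cep83 and Cep83os. Fbxo8 beside Cep44, Fam76b beside Cep57 and C130060C02Rik beside Cep78 did not pass, with differences of 0.01, −0.02 and −0.27. C130060C02Rik lay at 4.57 against 4.84, under the background guide of 4.92, so its values do not show whether it moved with Cep78.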
